A study of Mus musculus with 22 samples.

Results

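Lung epithelial cells (ECs) of AhR-/- mice after house dust mite (HDM) exposure were compared with those of AhR-/- mice at steady state, which covers 7 of the 22 libraries of the series. The 4 HDM libraries of the AhR knockout were set against the 3 naive libraries of the same genotype, with genes joined by identifier and those on chromosomes X and Y left out. Of 20694 protein-coding genes outside X and Y, 14326 had enough counts to be tested. All mice were on the C57BL/6 background, to which the AhR-/- line was backcrossed, and mice of both sexes older than 7 weeks were taken. HDM mice received 1 intranasal sensitisation with Dermatophagoides farinae extract, were challenged 8 days later on 4 consecutive days and were killed 72 h after the last dose. Naive mice are labelled as such, and the study describes its controls both as untreated and as given PBS, so that what these mice received is not settled here. ECs were sorted from digested lungs as live single CD45- EpCAM+ cells, which the study elsewhere also describes as CD31-. The deletion is present in every cell of the animal, so AhR is missing outside the epithelium too. The labels do not say that the libraries of a group came from separate mice, and p-values then measure the spread between these libraries, which may be technical. HDM and naive libraries are in separate tables named as runs, so HDM exposure and sequencing run cannot be told apart in any result below.

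HDM is a common indoor allergen that reaches the airway lining as a mixture of proteases, chitin and microbial products. ECs answer such exposure with alarmins and chemokines that recruit type 2 lymphocytes, and the IL-13 these make turns airway secretory cells into mucus-making goblet cells. AhR is a ligand-activated transcription factor that pairs with ARNT to switch on CYP1 enzymes and is active in barrier tissues such as the lung.

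Total counts were 11185853 to 13301855 in the naive and 10603531 to 17878442 in the HDM libraries. The predicted gene Gm10800 took 0.00819%, 46.5%, 71.9% and 62.7% of all counts in HDM libraries 1 to 4, against 9.54% to 18.3% in the naive libraries. Leaving out such dominant predicted genes, each naive library had 8740331 to 9533150 protein-coding counts. The same number was 15862029, 5117798, 1146165 and 2756632 in HDM libraries 1 to 4, so HDM library 3 carried the least information. Values are given as CPM, counts of a gene scaled to a common library total with the normalised library sizes, and 3 counts were worth 0.151 to 0.161 CPM in the naive and 0.0932 to 1.36 CPM in the HDM libraries. Pearson correlations of log2 CPM across genes were 0.977 to 0.982 between naive libraries and 0.820 to 0.920 between HDM libraries, where genes are not independent replicates. Along the first principal component, which held 55.4% of the variance, HDM libraries 1 and 2 (at -138.7 and -76.9) lay further from the naive libraries (63.6 to 81.6) than HDM libraries 3 and 4 (-4.92 and 0.75). The Y-linked gene Ddx3y was at 72.1 to 95.6 CPM in the naive libraries, at 67.4 and 69.6 in HDM libraries 3 and 4 and at 0.0377 and 0.0882 in HDM libraries 1 and 2. Results are therefore also given for HDM libraries 1 and 2 alone and for HDM libraries 3 and 4 alone, each against all 3 naive libraries.

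The targeted gene was read first. Ahr (ENSMUSG00000019256, chromosome 12, 35497974 to 35535038, GRCm38) was counted at 15.3, 13.5 and 17.1 CPM in naive libraries 1, 3 and 4 and at 21.7, 12.1, 25.4 and 22.8 in HDM libraries 1 to 4, an order kept for all values below. Its log2 fold change was 0.40 ± 0.26 (HDM over naive, ± standard error), with an adjusted p of 0.293 (quasi-likelihood F test of edgeR, adjusted by Benjamini-Hochberg over all genes tested, as for each adjusted p given). The fold change was 0.66 with HDM libraries 3 and 4 alone, which passed (adjusted p = 0.0185), and 0.14 with libraries 1 and 2 alone (adjusted p = 0.731). With 1 normalisation over all 22 libraries, Ahr was at 15.8 to 20.6 CPM in naive AhR-/- and 6.54 to 12.5 in naive WT libraries, and at 13.1 to 26.2 and 9.90 to 20.5 CPM after HDM. It was thus not lower in the libraries labelled AhR-/- than in WT (log2 difference 0.87 ± 0.33 at steady state and 0.50 ± 0.31 after HDM, adjusted p = 1 and 0.269), and counts summed over all exons do not tell whether a transcript lacks a deleted exon, so they give no check of the label. Cyp1b1, a CYP1 enzyme and AhR target, stood at 1.50, 0.956 and 0.314 CPM and at 1.24, 1.30, 1.36 and 1.52 after HDM. Epcam, the surface protein used for sorting, was at 102, 84.2 and 91.1 and 139.6, 179, 68.1 and 81.9 CPM, and its groups overlapped (log2 fold change 0.35 ± 0.34, adjusted p = 0.485).

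Ptprc, which encodes CD45 and should be absent after the sort, was at 6.86, 2.92 and 3.30 CPM in the naive libraries and at 139.5, 93.9, 27.7 and 14.2 after HDM. Its log2 fold change was 4.00 ± 0.81 (adjusted p = 0.0151), and HDM libraries 1 and 2 held the most. Of 24 hematopoietic markers, 22 were tested and 20 rose, with summed levels of 125 to 159 CPM at steady state and 306 to 1611 CPM after HDM. The summed level was 1611 and 1603 CPM in HDM libraries 1 and 2 and 363 and 306 in libraries 3 and 4. Macrophage markers summed to 249 to 255 CPM at steady state and 190 to 4910 after HDM (13 of 18 tested rose and 1 fell), or without Chil3 and Csf1r, which made up much of these sums, to 20.8 to 31.7 and 83.0 to 684. T and NK cell markers summed to 7.54 to 11.1 and 28.0 to 125 (8 of 13 rose), and granulocyte markers to 4.19 to 14.4 and 8.95 to 90.0 (1 of 10 rose). B and plasma cell markers summed to 299.6 to 332 and 223 to 662 CPM (5 of 10 rose and 1 fell). Sdc1 made up most of the naive sums, with 5304, 6358 and 5775 counts there and 3664, 2595, 198 and 953 after HDM. These sums thus say little about the other members. Jchain, the joining chain of secreted IgA and IgM, was at 0.321, 0.151 and 0.157 CPM against 502, 323, 137 and 48.8 (log2 fold change 10.19 ± 1.07, adjusted p = 0.00496). Endothelial markers summed to 10.9 to 15.8 and 19.1 to 54.7 CPM, with 1 of 12 rising, mesenchymal markers to 37.7 to 166 and 87.5 to 145, with 1 of 16 rising, and none of 4 erythroid markers passed (1.26 to 65.3 against 4.69 to 102 CPM). Epithelial markers summed to 18912 to 22119 CPM in the naive and 21224 to 58480 CPM in the HDM libraries, with 1 of 16 rising and 2 falling. Sftpc alone gave 728 to 3131 CPM of the naive sums and 44305, 17990, 5985 and 4548 CPM in HDM libraries 1 to 4. The median log2 fold change of the epithelial markers was -0.46. Among all genes tested, 10.5% rose and 9.73% fell. The numbers of granulocyte, endothelial, mesenchymal and epithelial markers past the threshold were near or under these shares. No marker of these lists was at 0 in all libraries of a group. In bulk RNA, a change in the number of cells of a type and a change in RNA per cell cannot be told apart.

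Of the 14326 genes, 2894 differed between HDM and steady state at an adjusted p of 0.05. 1500 rose, which is 10.5% of those tested, and 1394 fell, which is 9.73%. Without overlap between the 4 HDM and 3 naive libraries, 2307 genes (16.1%) were higher and 3154 (22%) lower after HDM. The median log2 fold change was 0.01 over all genes, 1.97 over those that rose and -1.21 over those that fell. At least 1 log2 unit was reached by 1338 of the genes that rose and 969 of those that fell. With upper-quartile in place of TMM normalization, 1817 rose and 1016 fell. HDM libraries 3 and 4 alone gave 3837 genes past the threshold (11.6% higher and 15.8% lower) and HDM libraries 1 and 2 alone 4756 (18.2% higher and 12.9% lower). Of the 2894 genes, 860 rose and 1140 fell with either pair. The count rested on every naive library, since leaving out naive library 1, 3 or 4 left 504, 114 or 119 genes. 31 genes that rose and 60 that fell passed in all 7 fits that each left out 1 library. With the mean log2 CPM of the hematopoietic markers as a covariate, 0 genes passed (1948 at an unadjusted p under 0.05), and this score was higher in every HDM library than in every naive library.

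Mucus and IL-13-type genes rose after HDM in AhR-/- ECs. Of 18 genes tested in this list, 13 rose and none fell, with a median log2 fold change of 4.60 against 0.01 over all genes, and 7 of them passed whichever library was left out. Agr2, a disulfide isomerase of the endoplasmic reticulum needed for mucin folding (chromosome 12, 35992907 to 36004087), had the lowest p of all genes that rose. It was at 1.07, 0.453 and 0.576 CPM in the naive libraries and at 26.4, 21.6, 19.1 and 15.2 after HDM. Every HDM library was far above every naive library (log2 fold change 4.87 ± 0.38, adjusted p = 0.00418), and Agr2 varied less among the HDM libraries than the other genes of this list. Clca1, a secreted protease that IL-13 induces in goblet cells (chromosome 3, 145003817 to 145032776), went from 3.97, 0.754 and 0.943 to 420.4, 625, 191 and 157 CPM (log2 fold change 7.53 ± 0.89, adjusted p = 0.00523). Retnla, a secreted resistin-like protein of type 2 responses, stood at 1993, 3498, 223 and 262 CPM after HDM against 5.89, 1.76 and 0.996 (9.02 ± 1.47, adjusted p = 0.00981). The difference between HDM libraries 1 and 2 and HDM libraries 3 and 4 was large for Retnla and small for Agr2.

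Both gel-forming mucins of the airways rose. Muc5ac was at 0.589, 0.453 and 0.524 CPM at steady state and at 17.8, 44.9, 8.62 and 8.10 after HDM (log2 fold change 5.27 ± 0.72, adjusted p = 0.00708), and Muc5b at 1.50, 1.96 and 2.15 and 16.0, 41.4, 25.9 and 12.0 (3.66 ± 0.47, adjusted p = 0.00627). The membrane mucin Muc4 went from 2.46, 1.81 and 1.57 to 27.3, 35.4, 3.63 and 7.09 CPM (3.29 ± 0.72, adjusted p = 0.0179). Muc5b is the mucin of healthy airways and Muc5ac that of goblet cell metaplasia, and both were higher in each of the 4 HDM libraries than in any naive library. Tff2, a trefoil peptide that acts on mucus, was at 0.161, 0.553 and 0.472 and 36.3, 62.6, 15.4 and 12.5 CPM (6.32 ± 0.75, adjusted p = 0.00523). Gp2, a glycoprotein that binds bacteria, was at 0.214, 0.251 and 0.681 and 6.80, 6.02, 13.2 and 6.42 (4.33 ± 0.53, adjusted p = 0.00555). Itln1, a lectin that binds microbial sugars, was at 0, 0.201 and 0.210 and 12.0, 14.6, 0.908 and 5.23 (5.89 ± 0.98, adjusted p = 0.0102). Their highest HDM library was not the same, HDM library 2 for Tff2 and Itln1 and HDM library 3 for Gp2.

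The chitinase-like genes Chil4 and Chil3 lie next to each other and are nearly identical, so that reads may be divided between them in a way that the counts do not show. Chil4 was at 1.23, 0.805 and 0.472 CPM and at 253, 549, 27.2 and 157 after HDM (8.20 ± 1.10, adjusted p = 0.00708). Chil3, which alveolar macrophages also make and which is on the macrophage marker list, was at 16.0, 4.33 and 0.838 and 168, 4139, 29.0 and 29.4 (7.28 ± 2.24), with HDM library 2 far above the rest, and missed the threshold narrowly (adjusted p = 0.05004). Slc26a4, the anion exchanger pendrin, was at 1.71, 1.06 and 1.15 and 128, 200, 2.72 and 12.3 CPM (6.05 ± 1.35, adjusted p = 0.0187), and again HDM libraries 1 and 2 were highest. Fxyd4, a regulator of the sodium pump, and Arg1, which breaks down arginine, rose by 3.47 and 3.50 (adjusted p = 0.0194 and 0.0315). Genes of the list that did not pass include the IL-4 and IL-13 receptor chain Il4ra at 26.7, 30.8 and 25.4 and 8.04, 41.1, 3.63 and 9.79 CPM and Postn, Fcgbp and Foxa3 with adjusted p of 0.0884, 0.0968 and 0.816. 12 members rose and Il4ra fell with HDM libraries 3 and 4 alone (median 2.71), and 15 rose with libraries 1 and 2 alone (median 4.62). The hematopoietic marker sum rose after HDM too, to 1611, 1603, 363 and 306 CPM in HDM libraries 1 to 4. Not all members followed this order, since Gp2 was highest in HDM library 3, Muc5b was higher there than in library 1 and Agr2 was nearly even. With that score as a covariate the median was 1.75, none passed, Agr2, Clca1, Muc5b and Muc5ac were at 3.84, 4.46, 2.65 and 2.04 (adjusted p = 0.116, 0.135, 0.291 and 0.306), and the sign turned for Muc4, Slc26a4, Fxyd4, Arg1, Chil3 and Fcgbp.

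**Figure D1:**
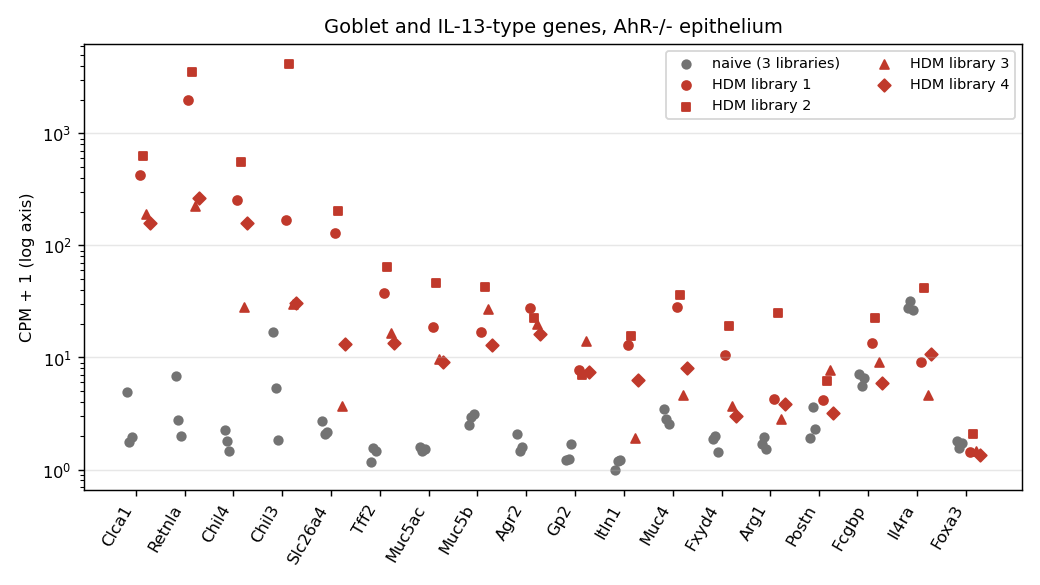
CPM + 1 on a log axis for the 18 tested goblet and IL-13-type genes in AhR-/- ECs, with 3 grey points for the naive libraries and 4 red symbols for HDM libraries 1 to 4. For Agr2 the 4 HDM libraries lie between 15.2 and 26.4 CPM, while for Slc26a4 they run from 2.72 to 200 CPM.

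Airway secretory genes rose as well, with 8 of 13 tested past the threshold, none lower and a median of 2.67. Reg3g, a lectin that kills Gram-positive bacteria, was at 4.82, 15.0 and 8.18 CPM at steady state and at 670.1, 586, 365 and 361 after HDM (log2 fold change 5.73 ± 0.53, adjusted p = 0.00418). Scgb3a1, a secretoglobin of secretory cells of the upper airways, was at 5.73, 12.2 and 8.23 and 171, 163, 131 and 59.1 (3.91 ± 0.45, adjusted p = 0.00523). Bpifb1, a lipid-binding protein of airway fluid, was at 3.11, 12.5 and 11.5 and 183, 145, 192 and 66.4 (4.02 ± 0.58, adjusted p = 0.00786). In each of these genes, the lowest HDM library was above the highest naive library. Lypd2 and Chad, both airway secretory cell genes, rose by 3.70 and 2.67 (adjusted p = 0.00786 and 0.0125). Scgb3a2, a secretoglobin of the small airways, was at 89.2, 105 and 48.2 and 582, 310.0, 514 and 132 CPM (2.25 ± 0.53, adjusted p = 0.0222). Scgb1a1, the defining secretoglobin of club cells, was abundant in all 7 libraries, at 2968, 2677 and 1183 and 6021, 5754, 2351 and 1300.2 CPM, and did not pass (0.76 ± 0.65, adjusted p = 0.422). With HDM libraries 3 and 4 alone, 6 of the secretory genes rose (median 1.61), and with libraries 1 and 2 alone 10 (median 2.97). The median was 0.95 with the hematopoietic score as a covariate. Scgb1a1 had a log2 fold change of -0.30 with HDM libraries 3 and 4 alone and of 1.36 with HDM libraries 1 and 2 alone, neither past the threshold, so its direction turned with the libraries.

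Of the alarmin and IL-1 family list, 5 of 13 genes tested rose and 1 fell (median 2.51). The median was 0.26 with HDM libraries 3 and 4 alone, 2.85 with libraries 1 and 2 alone and -0.088 with the hematopoietic score as a covariate, under which Il33, Il1b and Il1rl1 turned sign. Il33, the alarmin that activates type 2 lymphoid cells, was at 17.0, 8.35 and 5.92 CPM at steady state and at 510.2, 337, 33.6 and 49.0 after HDM (log2 fold change 4.48 ± 1.04, adjusted p = 0.0211). Il1rn, the IL-1 receptor antagonist, was at 1.02, 0.352 and 0.472 and 2.92, 14.7, 4.08 and 42.4 (4.71 ± 1.02, adjusted p = 0.0179). The former was highest in HDM libraries 1 and 2 and the latter in HDM library 4. Il18, Il1b and Il1a rose by 2.51, 5.09 and 4.28 (adjusted p = 0.0232, 0.0339 and 0.0354), and 11.2% of the exon length of Il1a is shared with another gene. Il1b had overlapping groups, at 0.804, 0.151 and 0.210 and 7.27, 40.9, 2.27 and 0.507 CPM. Il1a was at 0.268, 0.151 and 0.262 and 0.466, 13.5, 1.36 and 2.03 CPM. Both were far highest in HDM library 2 and passed in only 2 (Il1b) and 1 (Il1a) of the 7 fits with 1 library left out. Il1r1, the signalling receptor of IL-1, fell from 30.1, 37.8 and 40.8 CPM to 18.1, 20.7, 15.4 and 20.3 (-0.95 ± 0.19, adjusted p = 0.0151). Il1rl1, the IL-33 receptor, was at 1.71, 1.66 and 1.99 and 3.04, 3.09, 2.27 and 2.03 CPM and did not pass (0.57 ± 0.35, adjusted p = 0.255). In WT ECs the same gene had a log2 fold change of 3.52 ± 0.59, and the difference between the genotypes was -2.91 ± 0.86 with an adjusted p of 0.148.

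Of 18 chemokines tested, 14 rose and none fell, with a median of 3.90. Ccl5, which attracts T cells and is also made by them, was at 0.697, 0.0503 and 0.105 CPM in the naive libraries and at 25.1, 20.5, 11.3 and 14.0 after HDM (log2 fold change 5.97 ± 0.70, adjusted p = 0.00523). Ccl22, which attracts type 2 helper and regulatory T cells, was at 0.107, 0.352 and 0.419 and 43.6, 36.8, 9.98 and 5.57 (6.36 ± 0.90, adjusted p = 0.00784). Ccl2, which attracts monocytes, was at 0.214, 0.302 and 0.262 and 1.93, 6.02, 4.54 and 3.55 (3.89 ± 0.54, adjusted p = 0.00747). All HDM libraries were above all naive libraries for these 3 genes, and Ccl5 and Ccl2 were more even across HDM libraries than Ccl22. Cxcl15, a neutrophil attractant of the lung epithelium, rose from 82.2, 24.4 and 16.9 to 1152, 1115, 85.8 and 140.1 CPM (3.92 ± 1.09, adjusted p = 0.0358) and Cxcl10, an interferon-induced chemokine, from 0.321, 0.251 and 0.157 to 2.55, 5.12, 1.82 and 4.05 (3.79 ± 0.54, adjusted p = 0.00786). With HDM libraries 3 and 4 alone 7 chemokines rose and 1 fell (median 1.87), and with libraries 1 and 2 alone 14 rose (median 4.69). Ptprc was also highest in HDM libraries 1 and 2, as Ccl22 and Cxcl15 were and Ccl2 was not. The median of the list was 1.47 with the hematopoietic score as a covariate, and none passed.

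MHC class II genes, which present peptides to helper T cells, rose in 11 of 13 cases with none lower, and their median of 4.99 was the highest of the lists examined. Promoters of the class II chains typically carry a W-X-Y box read by the RFX and NF-Y complexes together with the co-activator CIITA. The letters of its Y box, CTGATTGG, were sought on both strands in the 250 bases before each RefSeq gene start (GRCm38.p6). They were found in 3 of the 11 promoters of the 9 list members with a sequence (27.3%), those of H2-Oa, H2-Aa and H2-Eb1, and in 3.83% of 32851 promoters. ATTGG, the core that CTGATTGG contains, was in 8 of these 11 promoters (72.7%) and in 33.8% of all promoters. Of 14 promoters of 13 matched goblet genes, 0 held CTGATTGG. A match of letters is a description of the window only. The 160 bases before the start of H2-Aa and H2-Eb1, which encode the alpha chain of I-A and the beta chain of I-E, are shown 5′ to 3′ on the gene's strand because their transcripts carry this result, with the matches in capitals.
H2-Aa, chr17:34287824-34287983, minus strand: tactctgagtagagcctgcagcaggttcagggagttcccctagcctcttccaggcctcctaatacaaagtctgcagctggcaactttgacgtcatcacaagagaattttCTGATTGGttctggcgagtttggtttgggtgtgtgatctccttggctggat
H2-Eb1, chr17:34305707-34305866, plus strand: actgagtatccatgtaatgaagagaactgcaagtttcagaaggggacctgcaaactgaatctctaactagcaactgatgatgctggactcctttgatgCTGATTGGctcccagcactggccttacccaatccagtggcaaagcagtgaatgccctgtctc
CTGATTGG lies 51 to 44 bases before the start of H2-Aa and 62 to 55 bases before that of H2-Eb1.

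H2-Ab1, the beta chain of I-A, was at 28.1, 8.20 and 6.13 CPM in the naive libraries and at 3438, 1214, 508 and 353 after HDM (log2 fold change 6.61 ± 1.11, adjusted p = 0.0103). H2-Aa was at 28.0, 8.80 and 5.24 and 1304, 1171, 143 and 148 CPM (5.63 ± 1.13, adjusted p = 0.0147). Cd74, the invariant chain that guards the peptide groove, was at 87.9, 49.1 and 51.4 and 2657, 1466, 483 and 446 (4.33 ± 0.76, adjusted p = 0.0111). The groups did not overlap for any of them, and HDM libraries 1 and 2 were above HDM libraries 3 and 4 each time. H2-Eb1 and Ciita were named after their values had been seen. H2-Eb1 was at 15.3, 5.13 and 3.14 and 1022, 728, 114 and 115 CPM (5.98 ± 1.10, adjusted p = 0.0121), and Ciita at 2.25, 0.805 and 0.681 and 39.0, 41.0, 5.45 and 6.08 (4.25 ± 0.88, adjusted p = 0.0156). The list members H2-DMb2 and H2-Ob rose by 6.29 and 4.99 (adjusted p = 0.0109 and 0.0101). H2-Oa, which shares 22.8% of its exon length with another gene, was at no more than 3 counts in each naive library and at 19.6, 11.1, 3.18 and 3.71 CPM after HDM. 10 members rose with HDM libraries 3 and 4 alone (median 3.09) and 12 with libraries 1 and 2 alone (median 5.68). Cd52 and Cd53, surface proteins of leukocytes on the hematopoietic list, were likewise higher in HDM libraries 1 and 2, at 1.39, 0.453 and 0.367 and 148, 95.1, 25.0 and 9.12 CPM for Cd52 and at 4.02, 3.27 and 1.94 and 112, 104, 25.0 and 31.9 for Cd53. MHC class II is made by dendritic cells, macrophages and B cells and also by alveolar type 2 cells. The list had a median of 0.65 in place of 4.99 once the hematopoietic score was a covariate.

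**Figure D2:**
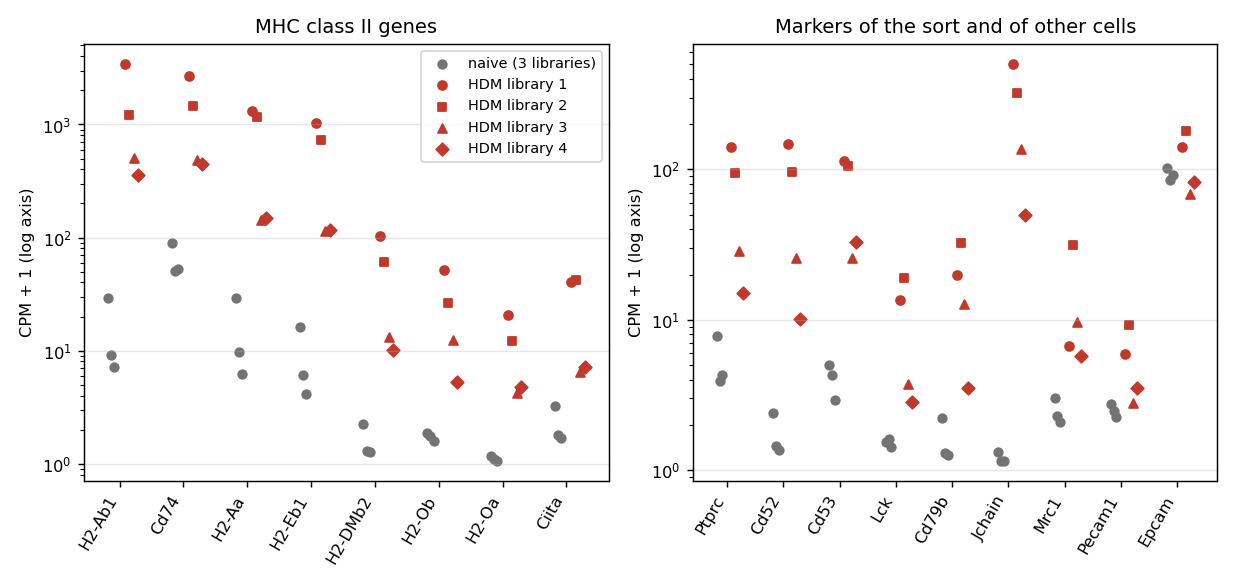
CPM + 1 on a log axis for MHC class II genes (left) and for markers of the sort and of other cells (right) in the 3 naive (grey) and 4 HDM libraries (red symbols). Ptprc reaches 139.5 and 93.9 CPM in HDM libraries 1 and 2, which are also the highest for H2-Ab1, and 27.7 and 14.2 in HDM libraries 3 and 4.

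MHC class I and immunoproteasome genes, which present peptides to cytotoxic T cells, rose in 8 of 17 cases with none lower (median 1.39). The median was 0.88 with HDM libraries 3 and 4 alone, 1.97 with libraries 1 and 2 alone and -0.53, opposite in sign, with the hematopoietic score as a covariate. Nlrc5, the class I counterpart of Ciita, was at 0.697, 0.654 and 0.472 CPM and at 10.3, 13.3, 3.18 and 4.39 after HDM (log2 fold change 3.72 ± 0.55, adjusted p = 0.00809). H2-K1, a classical class I heavy chain, was at 208, 207 and 199 and 1039.5, 1422, 304 and 469.7 (1.98 ± 0.53, adjusted p = 0.0327). B2m, the shared light chain, had groups that did not overlap, at 1310.2, 1345 and 1348 and 4116, 4141, 2507 and 2708 CPM, and just missed the threshold (1.34 ± 0.42, adjusted p = 0.0513). Of 37 interferon response genes, 15 rose and 1 fell (median 0.86), among them the antiviral membrane protein Ifitm3 at 2.68, 6.79 and 2.25 and 55.9, 65.5, 20.4 and 32.4 CPM (3.49 ± 0.54, adjusted p = 0.00866). Gbp2, a guanylate-binding protein, was at 0.964, 1.16 and 1.15 and 12.3, 20.5, 2.27 and 18.6 (3.65 ± 0.60, adjusted p = 0.01), and the influenza resistance gene Mx1 rose by 3.46 (adjusted p = 0.0122). Of 17 antimicrobial and complement genes, 8 rose and none fell (median 2.92). The median was 1.86 with HDM libraries 3 and 4 alone, 3.23 with libraries 1 and 2 alone and 0.10 with the hematopoietic score. Slpi, an inhibitor of neutrophil elastase, was at 1.82, 3.17 and 1.83 and 24.6, 40.9, 7.71 and 29.4 CPM (3.52 ± 0.52, adjusted p = 0.00787). Pigr, the receptor that carries IgA across the epithelium, was at 2.04, 1.26 and 1.36 and 124, 158, 5.45 and 19.6 (5.65 ± 1.11, adjusted p = 0.0139). Saa3, an acute-phase protein, was at 0.375, 0.151 and 0.262 and 3.07, 5.04, 6.81 and 93.9, with HDM library 4 far above the others (6.66 ± 1.54, adjusted p = 0.0209).

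Of 19 surfactant and alveolar type 2 genes tested, 6 rose and none fell, with a median of 2.70. The HDM libraries were uneven for most of them. Sftpa1, surfactant protein A, was at 1000.2, 324 and 268 CPM at steady state and at 15669, 12038, 1515 and 2225 after HDM (log2 fold change 3.89 ± 1.06, adjusted p = 0.0339). Sftpd, surfactant protein D, was at 127, 44.8 and 35.1 and 1409, 2554, 77.6 and 198 (3.94 ± 1.20, adjusted p = 0.0475), and Sftpc, the defining surfactant protein of type 2 cells, at 3131, 850.3 and 728 and 44305, 17990.3, 5985 and 4548 (3.54 ± 1.10, adjusted p = 0.0505). Naive library 1 was the highest naive library for all of them and exceeded HDM library 3 for Sftpd. Cebpa, a transcription factor of type 2 cells, rose from 1.23, 0.604 and 0.472 to 29.7, 23, 1.82 and 3.71 CPM (4.31 ± 0.94, adjusted p = 0.0179). Chil1, a chitinase-like protein that was among the genes of highest CPM that rose, was at 113, 34.4 and 24.8 and 3698, 2934, 177 and 415 (4.97 ± 1.22, adjusted p = 0.0251). Lamp3, a lamellar body protein, was at 86.3, 18.4 and 22.1 and 689, 879, 56.7 and 119 and missed the threshold (3.37 ± 1.04, adjusted p = 0.0503). Lyz2, lysozyme, which macrophages make too, missed it as well (3.12 ± 1.05, adjusted p = 0.0656). Abca3, the lipid pump of lamellar bodies, was at 99.7, 72.3 and 63.5 and 39.6, 87.9, 14.5 and 25.3 CPM (-0.88 ± 0.51, adjusted p = 0.233). With HDM libraries 3 and 4 alone, 2 members rose and 1 fell (median 0.62), whereas 18 of the 19 rose with libraries 1 and 2 alone (median 3.55). The median was -2.50 with the hematopoietic score as a covariate, opposite in sign.

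Alveolar type 1 genes, which mark the flat cells of gas exchange, were lower without overlap in 11 of 18 cases, where 22% of all genes were. By the test 2 of the 18 fell and 1 rose, near or under the shares of all genes (9.73% and 10.5%), and the median was -1.03. Gprc5a, a receptor-like protein of type 1 cells, was at 2110.5, 2212 and 1785 CPM at steady state and at 389, 644, 599 and 953 after HDM (log2 fold change -1.66 ± 0.38, adjusted p = 0.0211). Aqp5, the water channel of type 1 cells, was at 965, 929 and 806 and 276, 334, 439 and 617 (-1.11 ± 0.34, adjusted p = 0.0475). Cav1, the caveolar coat protein, was at 4368, 5016 and 6041 and 1255, 391, 3194 and 3109 and did not pass (-1.37 ± 0.69, adjusted p = 0.176). For each of the 3 genes the naive libraries lay above all HDM libraries, and the lowest value was in HDM library 1 or 2. Ager, a receptor that defines type 1 cells, was at 12374, 12274 and 12940.0 CPM and at 5985, 2002, 10348 and 13847 after HDM, with HDM library 4 above all naive libraries (-0.64 ± 0.71, adjusted p = 0.54). Emp2, Rtkn2, Clic5 and Pdpn, all type 1 cell genes, were at -1.37, -1.40, -1.66 and -0.94 on the log2 scale, without passing (adjusted p = 0.0695, 0.0779, 0.0911 and 0.135). Vegfa, the endothelial growth factor that type 1 cells secrete, was the member that rose, from 164, 121 and 159 to 746, 188, 1303 and 992 CPM (2.45 ± 0.59, adjusted p = 0.0242). In WT ECs Vegfa had a log2 fold change of 0.06 ± 0.74, and the difference of 2.34 ± 1.23 between the genotypes did not pass (adjusted p = 0.31). More of the list passed within each pair of HDM libraries, with 9 members lower and 2 higher with HDM libraries 3 and 4 alone (median -0.55) and 13 lower with libraries 1 and 2 alone (median -1.73). Gprc5a, Aqp5, Emp2, Rtkn2, Clic5 and Cav1 fell with either pair, and Pdpn with libraries 1 and 2 alone. With the hematopoietic score as a covariate the median was 0.72, opposite in sign.

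**Figure D3:**
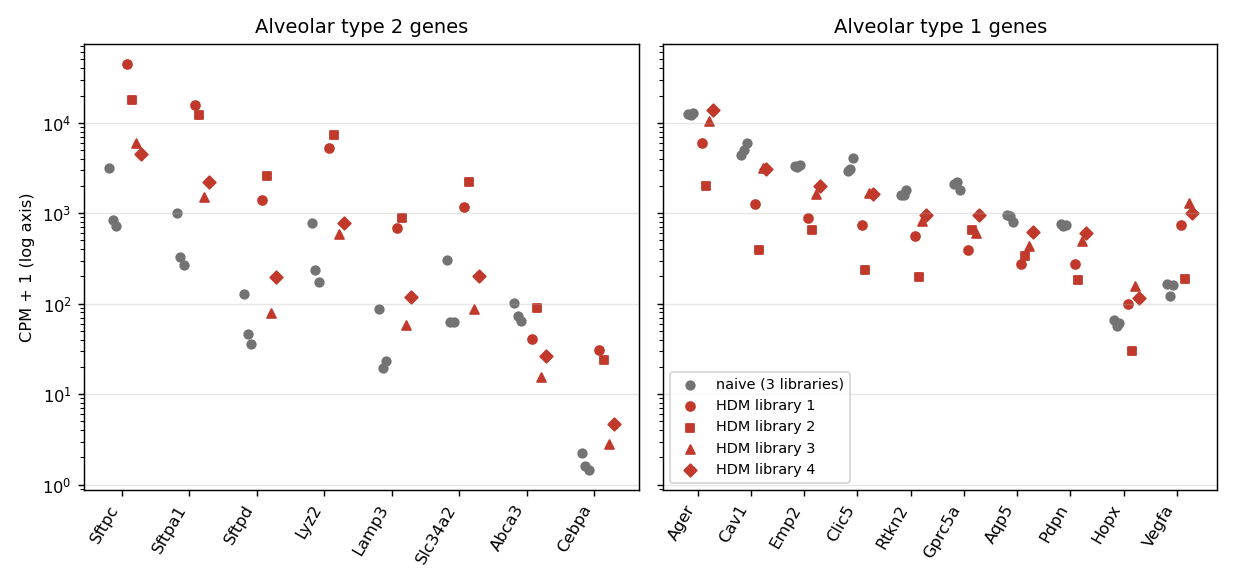
CPM + 1 on a log axis for alveolar type 2 genes (left) and alveolar type 1 genes (right) in the 3 naive (grey) and 4 HDM libraries (red symbols) of AhR-/- ECs. Sftpc runs from 728 to 3131 CPM in the naive and from 4548 to 44305 CPM in the HDM libraries, and Ager from 12274 to 12940.0 and from 2002 to 13847 CPM.

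Genes of cell adhesion and the basement membrane were among those that fell. Of 25 collagens, laminins and integrins, 6 fell and 2 rose, with a median of -0.35, where 9.73% of all genes fell and 10.5% rose. The median was -0.15 with HDM libraries 3 and 4 alone, -0.77 with libraries 1 and 2 alone and -0.020 with the hematopoietic score as a covariate. Lamb2 and Lamb3, laminin beta chains, fell from 168, 173 and 171 to 29.7, 36.5, 47.6 and 54.2 CPM and from 403, 421 and 404 to 84.4, 124, 123 and 148 CPM (log2 fold changes -2.03 ± 0.25 and -1.78 ± 0.25, adjusted p = 0.00526 and 0.00783). Itga3, the integrin chain that binds laminin, was at 398, 439 and 429 and 85.1, 99.9, 118 and 203 (-1.74 ± 0.33, adjusted p = 0.0125). Col4a1 and Col4a2, which form the collagen net under the alveoli, fell by 1.13 and 1.53 on the log2 scale (adjusted p = 0.0307 and 0.0183). Bcam, a laminin-binding adhesion molecule, went from 499, 487 and 471 to 30.8, 77.5, 66.3 and 66.5 CPM (-3.01 ± 0.33, adjusted p = 0.00496). Every HDM library was below every naive library in these genes, and the naive libraries were nearly equal.

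Of 18 adherens junction and desmosome genes, 6 fell and 2 rose (median 0.01), where 9.73% of all genes fell and 10.5% rose. Vcl, vinculin, which ties junctions to actin, was at 90.3, 106 and 99.6 CPM and at 9.41, 8.78, 17.2 and 27.0 after HDM (-2.69 ± 0.39, adjusted p = 0.00786). 25.5% of its exon length is shared with another gene. Cdh1, E-cadherin, was at 673, 675 and 723 and 239, 216, 291 and 307 (-1.39 ± 0.26, adjusted p = 0.012), and Jup, plakoglobin, at 150.2, 168 and 149 and 18.6, 63.5, 17.2 and 30.7 (-2.24 ± 0.43, adjusted p = 0.0133). Ctnnb1, beta-catenin, which binds the tail of E-cadherin, rose in contrast from 53.9, 41.2 and 37.7 to 135, 105, 90.8 and 80.2 CPM (1.22 ± 0.25, adjusted p = 0.0154). Of 28 tight junction genes, 5 fell and 3 rose (median -0.27), where 9.73% and 10.5% of all genes did. Cldn1, a sealing claudin, was at 0.911, 1.41 and 1.21 and 50.5, 31.6, 2.72 and 4.73 (4.31 ± 0.95, adjusted p = 0.0185), and it was highest in HDM libraries 1 and 2. Krt7, a keratin of simple epithelia, fell from 1111, 1261 and 1167 to 350.4, 311, 453 and 645 CPM (-1.42 ± 0.34, adjusted p = 0.0224), and of 18 keratin and transitional state genes 5 rose and 2 fell (median -0.21). With HDM libraries 3 and 4 alone, medians of the adherens junction, tight junction and keratin lists were -0.07, -0.21 and -0.35. With libraries 1 and 2 alone they were -0.27, -0.46 and -0.31, and with the hematopoietic score as a covariate -0.21, 0.11 and 0.023.

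Signalling genes moved in both directions. Of 28 JAK-STAT genes 6 rose and 7 fell (median 0.29), where 10.5% of all genes rose and 9.73% fell. The median turned to -0.37 with HDM libraries 3 and 4 alone and to -0.91 with the hematopoietic score, against 0.37 with libraries 1 and 2 alone. Jak1, a kinase of most cytokine receptors, fell from 104, 99.9 and 117 to 63.1, 60.7, 52.6 and 54.9 CPM (log2 fold change -0.88 ± 0.18, adjusted p = 0.0155). Stat6, which carries the IL-4 and IL-13 signal, was at 83.6, 85.0 and 90.6 and 39.5, 57.3, 33.6 and 44.4 (-0.98 ± 0.22, adjusted p = 0.0185). Il6st, the shared receptor chain of IL-6 cytokines, was at 129, 153 and 176 and 50.7, 42.0, 65.8 and 63.3 (-1.47 ± 0.23, adjusted p = 0.00919). HDM libraries of these genes were close together and all under the naive libraries, whereas Jak2 rose from 8.79, 9.30 and 6.92 to 85.4, 29.1, 25.0 and 18.2 CPM (2.27 ± 0.52, adjusted p = 0.0209). Stat5b and Ifnar1, a type I interferon receptor chain, fell by 1.21 and 1.20 on the log2 scale (adjusted p = 0.00872 and 0.0112). In WT ECs Jak1 and Stat6 had log2 fold changes of 0.14 ± 0.21 and 0.29 ± 0.18. The differences between the genotypes were -1.0 ± 0.47 and -1.25 ± 0.44 and did not pass (adjusted p = 0.257 and 0.159).

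Of 25 NF-kappaB and innate sensing genes 7 rose and 3 fell (median 0.54), with medians of -0.16 with HDM libraries 3 and 4 alone, 0.94 with libraries 1 and 2 alone and -0.86 with the hematopoietic score. Tlr5, the flagellin receptor, fell from 21.7, 26.3 and 22 to 4.75, 4.72, 5.45 and 9.12 CPM (-1.97 ± 0.27, adjusted p = 0.00714), while Nfkb1, the p105 subunit, rose from 4.34, 3.32 and 4.66 to 42.0, 26.9, 15.0 and 10.3 (2.55 ± 0.47, adjusted p = 0.0121). Of 32 TGF-beta and BMP genes 4 rose and 5 fell (median 0.28), near the 10.5% and 9.73% of all genes. The ligand Tgfb2 was at 167, 149 and 155 and 39.2, 35.0, 56.3 and 76.8 CPM (-1.61 ± 0.29, adjusted p = 0.0113). Its signal carrier Smad3 was at 34.8, 41.6 and 35.1 and 13.5, 12.8, 14.1 and 21.8 (-1.26 ± 0.23, adjusted p = 0.0114), and the shared partner Smad4 rose from 9.59, 8.50 and 8.33 to 24.9, 15.9, 17.7 and 21.3 (1.19 ± 0.22, adjusted p = 0.0118). The ligand and Smad3 were thus lower and Smad4 higher in every HDM library than in any naive library. Among 18 ion transport genes 5 rose and 4 fell (median 0.15, or -0.40 with the hematopoietic score). The calcium-activated chloride channel Ano1 fell from 654, 790.4 and 787 to 162, 124, 259.6 and 332 CPM (-1.76 ± 0.37, adjusted p = 0.0163) and the sodium channel subunit Scnn1b by 1.63 on the log2 scale (adjusted p = 0.0242). The chloride channel Cftr rose from 2.52, 1.96 and 1.52 to 35.2, 30.6, 2.72 and 9.12 CPM (3.34 ± 0.73, adjusted p = 0.0182).

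Circadian clock genes passed about as often as all genes, of which 10.5% rose and 9.73% fell. Of 8 activators and REV-ERB targets 2 rose and none fell (median -0.08), and of 13 repressors and output genes 1 rose and 2 fell (median -0.13). Cry2, a repressor of CLOCK and BMAL1, was at 99.1, 84.6 and 124 CPM at steady state and at 28.1, 17.2, 31.3 and 32.6 after HDM (log2 fold change -1.92 ± 0.26, adjusted p = 0.00714). Nr1d1, the nuclear receptor REV-ERB alpha, was at 65.6, 65.5 and 111 and 20.6, 35.9, 27.7 and 35.5 (-1.43 ± 0.28, adjusted p = 0.0137), and Bhlhe40, a repressor also induced in activated lymphocytes, at 11.5, 5.23 and 5.29 and 144, 166, 14.1 and 23.8 (3.58 ± 0.89, adjusted p = 0.0255). Cry2 was lower in all HDM libraries by a similar amount and kept its call whichever library was left out, while Bhlhe40 was high in HDM libraries 1 and 2. Nfil3 and Npas2 rose by 2.00 and 1.52 (adjusted p = 0.0428 and 0.0438). Arntl, which encodes BMAL1, and Clock had overlapping groups, at 11.4, 15.7 and 10.8 and 7.14, 11, 13.2 and 16.0 CPM for Arntl and at 27.3, 26.2 and 43.4 and 38.0, 18.7, 41.3 and 42.6 for Clock (adjusted p = 0.795 and 0.824). The hour of day at which ECs were taken is not given in the labels. Of 9 genes of the AhR battery tested, Aldh3a1, an aldehyde dehydrogenase and AhR target, rose from 1.61, 3.17 and 1.10 to 8.26, 9.03, 3.63 and 5.40 CPM (1.79 ± 0.46, adjusted p = 0.0275). The AhR partner Arnt fell from 48.7, 53.6 and 56.3 to 23.3, 25.9, 28.1 and 29.2 (-0.99 ± 0.17, adjusted p = 0.0109). Tiparp, a feedback inhibitor of AhR, was at 139, 118 and 204 and 86.9, 30.9, 108 and 131 CPM and Nqo1, a quinone reductase, at 3.48, 3.82 and 3.35 and 3.14, 3.33, 4.54 and 1.52, both with overlapping groups (adjusted p = 0.214 and 0.693).

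Cell cycle genes rose in 18 of 33 cases and fell in 1 (median 1.96). Ccna2, cyclin A2, was at 0.697, 0.754 and 0.629 CPM and at 9.41, 18.1, 2.72 and 2.87 after HDM (log2 fold change 3.63 ± 0.70, adjusted p = 0.0134), and Birc5, survivin, at 1.07, 0.654 and 1.15 and 18.3, 14.2, 2.72 and 2.36 (3.37 ± 0.75, adjusted p = 0.019). E2f1, a driver of S-phase entry, fell from 24.6, 22.5 and 24.9 to 6.68, 6.10, 11.8 and 13.5 (-1.38 ± 0.30, adjusted p = 0.0176). With HDM libraries 3 and 4 alone 6 cell cycle genes rose and 1 fell, with libraries 1 and 2 alone 25 rose and 1 fell, and the hematopoietic markers were likewise higher in libraries 1 and 2. Their score as a covariate turned the median to -0.81. Of 21 immediate early genes 8 rose and 1 fell (median 1.25), led by Fosb and Ier2 at 3.69 and 3.70 (adjusted p = 0.0179 and 0.0193). The median of that list was 0.016 with HDM libraries 3 and 4 alone, 1.86 with libraries 1 and 2 alone and -0.88 with the hematopoietic score as a covariate. Such genes also respond to tissue digestion and sorting. Gclc, which makes glutathione, rose from 8.41, 6.19 and 7.23 to 310.1, 232, 16.8 and 45.3 CPM (4.38 ± 0.95, adjusted p = 0.0179). Of 22 NRF2 genes 4 rose and 1 fell (median 0.10), where 10.5% of all genes rose and 9.73% fell. With HDM libraries 3 and 4 alone 2 NRF2 genes rose and 7 fell (median -0.30), with libraries 1 and 2 alone 6 rose and 2 fell (median 0.41), and the median was -0.83 with the hematopoietic score. Of 27 xenobiotic enzymes 3 rose and 2 fell (median 0.08), and of 25 sterol and fatty acid genes 1 rose and 2 fell (median 0.19), counts near or under the shares of all genes. The sterol median turned to -0.30 with HDM libraries 3 and 4 alone and to -0.96 with the hematopoietic score. Scd2, a fatty acid desaturase, fell from 2221, 2652 and 2478 to 573, 249, 928 and 1004 CPM (-1.83 ± 0.49, adjusted p = 0.0327).

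Of 24 motile cilia genes 2 rose and 1 fell (median 0.65), and of 25 genes of the unfolded protein response 2 rose and 1 fell (median 0.01). Of 22 lung epithelial transcription factors 7 rose and 1 fell (median 0.61). None of 15 heat shock genes passed (median -0.20). Apart from the transcription factors, the lists of this paragraph passed near or under the shares of all genes, 10.5% higher and 9.73% lower. Of 36 nuclear genes of the respiratory chain 4 rose (median 0.41), of 13 mitochondrially encoded genes 1 rose (median 0.69) and of 49 ribosomal protein genes 4 rose (median 1.10), with none lower. The ribosomal median was -0.10 with HDM libraries 3 and 4 alone, with 1 higher and 2 lower, and 1.61 with libraries 1 and 2 alone, with 43 higher. With the hematopoietic score as a covariate, medians turned to -0.25 for cilia, -0.77 for transcription factors, -0.46 for the respiratory chain, -0.47 for mitochondrially encoded and -1.77 for ribosomal protein genes.

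**Figure D4:**
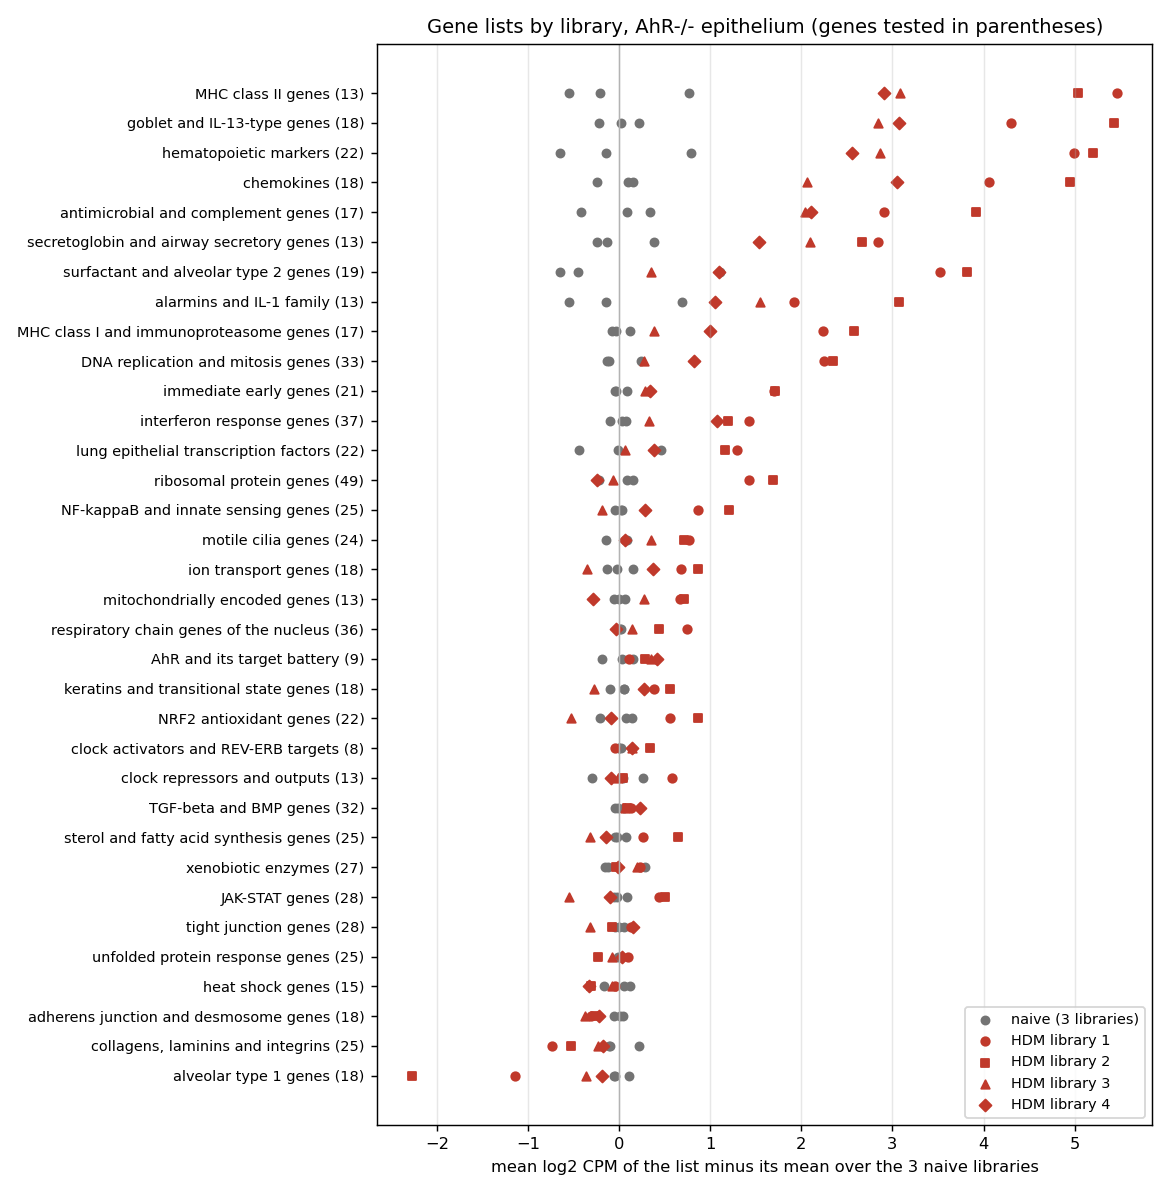
Mean log2 CPM of each gene list in each AhR-/- library minus its mean over the 3 naive libraries, with naive libraries in grey and HDM libraries 1 to 4 as red symbols. The hematopoietic markers, at 5.61, 5.81, 3.47 and 3.17 in HDM libraries 1 to 4 before subtraction and -0.04 to 1.40 in the naive libraries, stand among the lists that move most.

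Among single genes of lowest p, those that rose included Wfdc17, Mgl2, Cd209a, Ms4a6d and Srgn, which macrophages and dendritic cells are known to express. Mgl2, a lectin of such cells, was at 0.375, 0.503 and 0.210 CPM at steady state and at 83.7, 43.4, 27.7 and 20.9 after HDM (log2 fold change 6.91 ± 0.65, adjusted p = 0.00418). Wfdc17 was at 0.429, 0.402 and 0.105 and 20.7, 20.1, 9.98 and 17.9 (5.77 ± 0.48, adjusted p = 0.00418), and Cd209a, a DC-SIGN relative, at 1.13, 0.654 and 0.838 and 123, 28.1, 88.5 and 35.0 (6.29 ± 0.67, adjusted p = 0.00496). All 3 were higher in each of the 4 HDM libraries than in any naive library. With the hematopoietic score as a covariate, Mgl2, Wfdc17 and Cd209a had log2 fold changes of 4.53, 4.89 and 5.64 and did not pass (adjusted p = 0.146, 0.116 and 0.253). Calca, which encodes the neuropeptide CGRP of neuroendocrine cells, was even across the libraries, at 5.63, 8.35 and 6.08 and 27.7, 35.6, 25.4 and 23.6 CPM (2.08 ± 0.24, adjusted p = 0.00523). Naf1, needed to assemble telomerase and other small nucleolar ribonucleoproteins, was at 1.61, 1.96 and 1.89 and 8.32, 7.32, 10.4 and 8.44 (2.22 ± 0.26, adjusted p = 0.00523). Serpina3g and AA467197 had no more than 3 counts in any naive library and stood at 8.70, 4.72, 1.82 and 7.94 CPM and at 23.3, 33.3, 3.18 and 13.3 CPM after HDM.

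The genes of lowest p that fell had HDM libraries close together, which a choice by lowest p favours. Ccdc9b was at 30.1, 40.8 and 35.2 CPM in the naive libraries and at 3.91, 2.52, 3.18 and 5.74 after HDM (log2 fold change -3.20 ± 0.29, adjusted p = 0.00418). E2f2, a cell cycle transcription factor, was at 42.2, 44.1 and 45.5 and 12.8, 9.76, 9.98 and 12.3 (-1.96 ± 0.18, adjusted p = 0.00418). Arhgef2, a microtubule-bound activator of RhoA, was at 292, 295 and 319 and 45.0, 51.9, 51.3 and 78.7 (-2.41 ± 0.25, adjusted p = 0.00496). Rnf43, which removes Wnt receptors from the cell surface, was at 34.6, 34.1 and 31.8 and 11, 8.78, 9.53 and 11.1 CPM (-1.72 ± 0.18, adjusted p = 0.00496), and the Wnt ligand Wnt9a at 16.9, 21.6 and 24.7 and 3.17, 3.25, 4.08 and 5.57 (-2.43 ± 0.27, adjusted p = 0.00496). These 5 genes kept their call whichever library was left out. Anks1, Itprip, Taok2, Radil, Fam53b, Icmt, Slc45a3, Arid3b and Dnajb2 fell by 1.82 to 2.46 on the log2 scale (adjusted p = 0.00418 to 0.00496). Of the fallen genes of highest CPM, Sparc, a matrix-binding glycoprotein, was at 2401, 2235 and 2049 and 674, 647, 1077 and 1233 (-1.30 ± 0.38, adjusted p = 0.0418). Slc44a2, a choline transporter, was at 1717, 2025 and 2116 and 289, 328, 437 and 781 (-2.09 ± 0.42, adjusted p = 0.0144).

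The same HDM comparison in the other genotypes gave 3816 genes higher (27.3%) and 3102 lower (22.2%) in WT, and 2006 higher and 1999 lower (13.9% each) in CYP1B1-/-. Of the genes that passed in AhR-/-, 2064 of the 2842 tested in WT also passed there in the same direction, as did 1783 of the 2857 tested in CYP1B1-/-. These genes were part of the 6918 that passed in WT and the 4005 that passed in CYP1B1-/-. In WT and CYP1B1-/-, no HDM library had Ddx3y reads while every naive library had them, so that the AhR-/- HDM libraries 3 and 4 are the only ones that match their naive libraries in this respect. The type 1 list had medians of -1.03 in AhR-/-, -2.72 in WT and -3.20 in CYP1B1-/-, with 2, 16 and 17 members lower. The goblet list had medians of 4.60, 3.18 and 3.26, with 13 of 18, 11 of 15 and 9 of 17 tested members higher. Cell cycle genes had medians of 1.96, 3.93 and 3.79, and MHC class II genes of 4.99, 6.41 and 6.77.

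The difference of the HDM effect between genotypes was tested over all 22 libraries. None of 16107 genes passed for AhR-/- against WT (0%, with 2984 at an unadjusted p under 0.05 and 200 and 1221 past the threshold with the likelihood ratio test and DESeq2). None passed for AhR-/- against CYP1B1-/- (0%, with 2014 unadjusted and 7 and 115 with the other tools). Without HDM library 2 of AhR-/-, 981 and 13 genes passed. Against WT, the genes of lowest p were higher by 5.10 ± 0.93 for the B cell chemokine Cxcl13, 2.66 ± 0.51 for the growth factor Fgf18 and 3.35 for the BMP signal carrier Smad9, and differed by -3.04 for the glycolytic enzyme Eno2 (adjusted p = 0.148 each). Against CYP1B1-/-, Fgf18 was higher by 2.63 and the interferon-induced chemokine Cxcl9 differed by -5.21 ± 1.20 (adjusted p = 0.301 each). For Agr2 the log2 fold change was 1.89 ± 0.84 in WT and 2.74 ± 1.09 in CYP1B1-/-, and its difference from WT of 3.14 ± 1.19 did not pass (adjusted p = 0.178). Agr2 (35992907 to 36004087) lies near the targeted gene Ahr (35497974 to 35535038) on chromosome 12, and whether linked sequence plays a part was not tested. Clca1 had 7.29 ± 1.01 in WT and 7.27 ± 1.48 in CYP1B1-/- beside 7.53 ± 0.89 in AhR-/-.

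**Figure D5:**
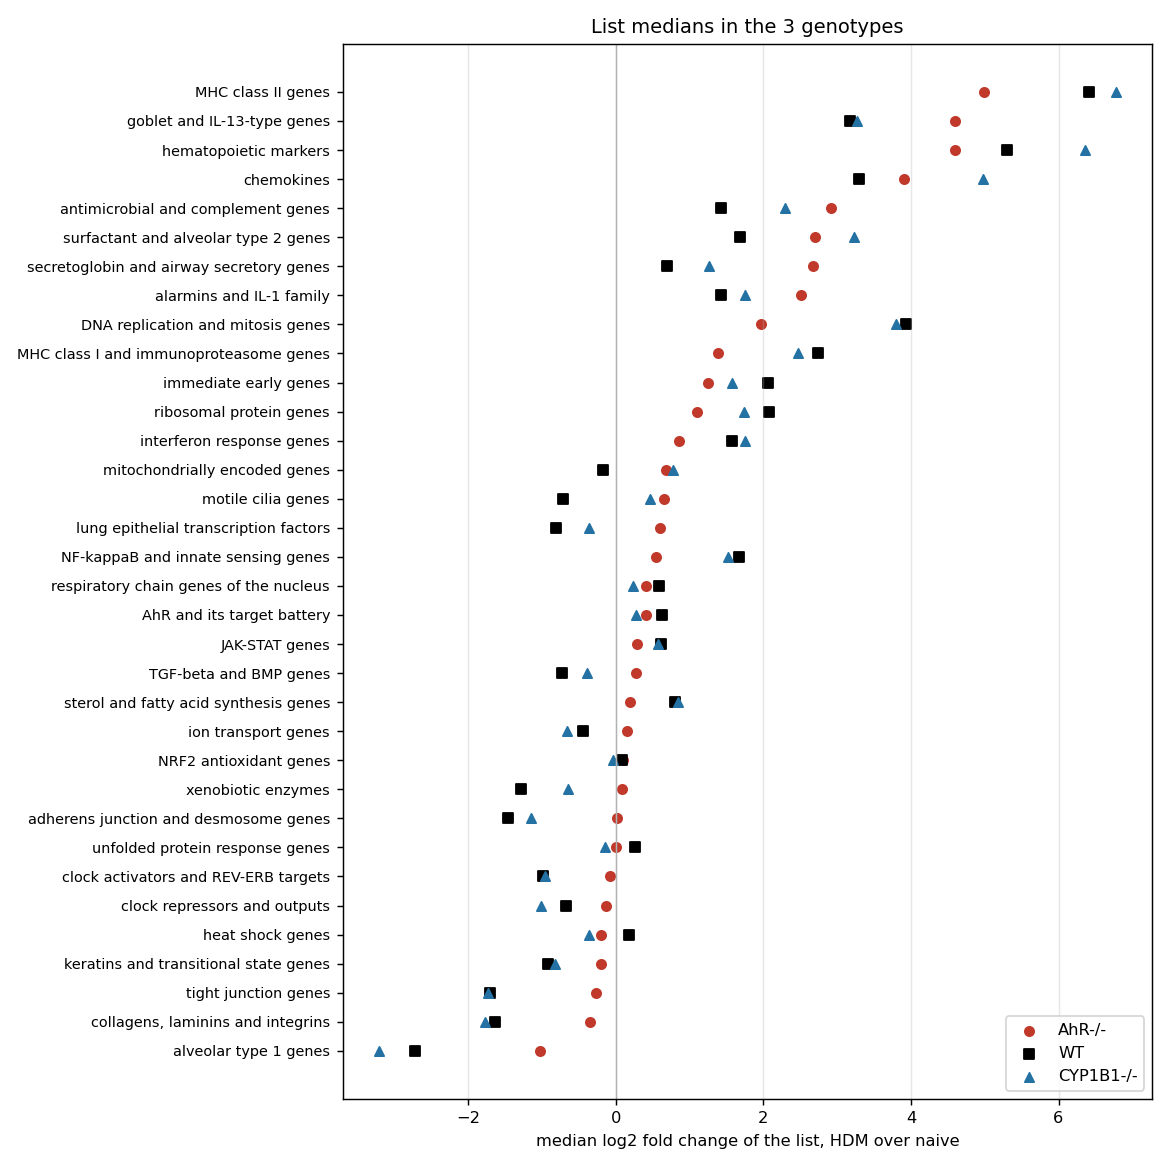
Median log2 fold change (HDM over naive) of each gene list in AhR-/- (red circles), WT (black squares) and CYP1B1-/- (blue triangles) ECs. The type 1 list lies at -1.03, -2.72 and -3.20, and the goblet list at 4.60, 3.18 and 3.26.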

How the data were processed

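RNA of sorted lung ECs was reverse transcribed with an oligo-dT primer and template switching, amplified, tagmented and sequenced. Reads were trimmed by the authors (bbduk), aligned to mm10 (GSNAP) and assigned to Ensembl 99 genes (featureCounts 2.0.0). Each deposited value is a raw count of reads for a gene. Their strand setting and treatment of reads with several positions are not given in the sources used here, so reads of overlapping, antisense or near-identical genes cannot be told apart. Among genes named, Ctnnb1, Ccna2, Cd52, Slc45a3 and Hopx share 14.6%, 12.5%, 14.5%, 13.5% and 27.2% of their exon length with another gene.

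The steady-state and HDM tables were joined by gene identifier, and 54147 of 54373 genes matched the GENCODE M21 annotation (GRCm38). Protein-coding genes outside X and Y were kept where filterByExpr passed them (at least 10 counts, 15 in total), normalized with TMM and tested with glmQLFit (robust) and glmQLFTest of edgeR 4.0.16 in R 4.3.3, with the 7 AhR-/- libraries in the fit. Standard errors were taken as the size of the log2 fold change over the root of F. The difference between genotypes is the interaction contrast over 22 libraries. Scripts were tested on simulated data. Alternatives were RLE and upper-quartile normalization, no filter and at least 10 counts in every library, DESeq2 1.42.0, limma 3.58.1 voom, the likelihood ratio test, no robust estimation, all 22 libraries, all gene classes, no dominant predicted genes (at least 1% of a library), the replicate number as a block, marker scores as covariates, HDM libraries split by Ddx3y at 1 CPM, and each library left out. The unblocked fit of libraries 1, 3 and 4 was added after the data were seen.

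The comparison and the gene lists were chosen with earlier results of these data known. Named genes are, by the rule set for them, the 15 of lowest p and the 10 of highest CPM in each direction, the targeted genes, sorting markers and the leading members of each list, of which a part is described. Promoter windows are RefSeq sequences of GRCm38.p6.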

Additional observations from a re-analysis of the deposited data

Results flagged for a closer look

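Among 199 sets of 4 HDM values tested for 1 library far from the others by Dixon's criterion, 3 were found, where chance alone gives about 5% of sets. Gp2 was at 13.2 CPM in HDM library 3, the shallowest, against 6.02 to 6.80 in the others. Chad was at 22.9 CPM in HDM library 2 against 8.10 to 9.53. Clock was at 18.7 CPM in HDM library 2 against 38.0 to 42.6.

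Immunoglobulin gene segments lie outside the protein-coding class and entered only the alternative with all gene classes. They took 0.321%, 0.214%, 0.016% and 0.0144% of all counts in HDM libraries 1 to 4, each above the 0.00358% to 0.0061% of the naive libraries. All counts include those of Gm10800, which differ among the HDM libraries.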

How the results depend on the processing

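The 2894 genes of the HDM comparison stayed within 1.5 times under RLE (2959) and upper-quartile normalization (2833), without the filter (2540), with 10 or more counts in each library (2489 of 8206), with DESeq2 (4015), voom (3633), the likelihood ratio test (4035), no robust estimation (2925), all 22 libraries (3370), all gene classes (3253), no dominant predicted genes (2983), HDM libraries 3 and 4 alone (3837) and at least 1 log2 unit (2307). It became 0 with the hematopoietic score and 444 with the alveolar type 2 score as covariate and 4756 with HDM libraries 1 and 2 alone. Each library left out gave 114 to 3404 genes for AhR-/-, 6016 to 7401 for WT, 2629 to 4514 for CYP1B1-/-, 0 to 981 for the difference from WT and 0 to 13 for that from CYP1B1-/-. The differences, 0 in the test used, were 200 and 7 with the likelihood ratio test and 1221 and 115 with DESeq2, and 0 with RLE, at least 10 counts in every library, the hematopoietic score or Y-linked reads as a covariate, or the replicate block. Depth limits HDM library 3, where 3 counts are 1.36 CPM.

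With the replicate block of numbers 1, 3 and 4 the count was 2900, and 3404 for the same libraries without it. It was 6066 in WT (6918 without) and 582 in CYP1B1-/-, where the same libraries without it gave 2896 and all libraries 4005. The labels do not say that numbers pair libraries. Same-numbered AhR-/- libraries had deviations that correlated at 0.0973, 0.0366 and 0.182, and naive libraries 1 and 3 correlated best with HDM library 2.

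Of 125 named genes past the threshold, 37 passed in all 7 fits with 1 library left out. Log2 fold changes turned sign with the hematopoietic score as covariate for Cyp1b1 (-0.038), Epcam (-1.29), Ptprc (-0.46), Pecam1 (-0.86), Tiparp (0.82), Muc4 (-0.67), Slc26a4 (-1.11), Fxyd4 (-0.98), Arg1 (-0.52), Chil3 (-4.02), Fcgbp (-1.15), Scgb1a1 (-2.31), Il33 (-1.25), Il1b (-3.32), Il1rl1 (-0.088), Cxcl15 (-1.89), Ciita (-0.66), H2-K1 (-0.53), Cebpa (-0.98), Sftpa1 (-1.14), Sftpd (-2.60), Sftpc (-1.16), Lamp3 (-2.04), Lyz2 (-2.50), Slc34a2 (-3.43), Emp2 (0.20), Rtkn2 (0.32), Clic5 (0.76), Cav1 (1.26), Ager (1.43), Pdpn (0.66), Cldn1 (-0.93), Bhlhe40 (-1.43), Nfil3 (-0.46), Arntl (0.82), Ccna2 (-0.055), Birc5 (-0.81), Fosb (-0.88), Ier2 (-0.99), Gclc (-0.48), Cftr (-0.35), Scnn1b (0.066), Lck (-0.55) and Chil1 (-1.0). With the alveolar type 2 score they turned for Epcam (-0.49), Scgb1a1 (-0.48), Slc34a2 (-0.63), Ager (0.11) and Arntl (0.30). With voom this held for Epcam (-0.14), Scgb1a1 (-0.16) and Arntl (0.023), with HDM libraries 3 and 4 alone for Epcam (-0.27), Scgb1a1 (-0.30) and Arntl (0.26), and with HDM libraries 1 and 2 alone for Foxa3 (0.026) and Clock (-0.19). With each library left out, Foxa3 was at -0.74 to 0.15, Arntl at -0.32 to 0.14 and Clock at -0.011 to 0.42. Foxa3 and Arntl turned without HDM library 1, and Arntl (0.082) and Clock without naive library 3. The cause was not tested.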
